A study of Mus musculus with 233 samples.

Results

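The comparison described here set wild-type (WT) mouse striatum that received the DBD virus against WT striatum that received the Estop virus. DBD is an adeno-associated virus whose cargo is an HA-tagged zinc finger repressor protein from which the DNA binding domain was removed, driven by the human synapsin (hsyn) promoter. Estop is a virus of the same serotype whose insert, a transcription blocker and stop-EGFP stuffer, encodes neither protein nor mRNA. Of the 233 RNA libraries of the series, 76 are labelled WT DBD or WT Estop. After 4 libraries were left out, 72 were compared, 35 of DBD and 37 of Estop, from 54 mice.

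The study asked what a huntingtin-directed zinc finger repressor does to the striatum of mice that model Huntington's disease. It injected heterozygous zQ175DN knock-in mice and their WT littermates in both hemispheres, with one virus per hemisphere. The design text pairs the active virus with a control virus in each mouse, while by the sample identifiers 18 mice of this comparison carried both controls. The active virus, nZFP, carries the complete repressor ZFP30645 under the same hsyn promoter, and DBD and Estop are its 2 controls. Each virus was studied in 5 paradigms whose names give the months of age at which mice were injected and then killed. The DBD groups held 7 libraries in 2M_6M (4 months of treatment), 8 in 2M_8M (6 months), 6 in 6M_8M (2 months), 7 in 6M_10M (4 months) and 7 in 6M_12M (6 months). The Estop groups held 7, 7, 8, 8 and 7 libraries in the same order. All mice of the comparison were wild type for Htt, were injected bilaterally, and each group held males and females. The 18 mice with both viruses had DBD on the left and Estop on the right, so virus and hemisphere cannot be told apart within them.

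The synapsin promoter is active in neurons, so the DBD protein is made mainly by transduced neurons, while RNA was taken from whole striatal tissue with all its cell types. The striatum consists mostly of medium spiny neurons, GABAergic projection cells that carry dopamine D1 receptors (direct pathway) or D2 and adenosine receptors (indirect pathway). A zinc finger repressor is a designed string of zinc fingers that reads DNA, joined to a domain that recruits silencing proteins. Without the fingers the protein keeps its other parts but has no designed way to find a gene. In bulk tissue, fewer cells of a type and less RNA per cell cannot be told apart.

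The viruses were told apart by the deposited vector entries, in CPM, the count scaled to a total of 1 M gene counts. WPRE, a viral RNA element in the protein-expressing vectors, lay at 175, 2187 and 4187 CPM (lowest, median and highest) in the DBD libraries, against 13.4, 36.9 and 114 CPM in the Estop libraries. Among the libraries kept, the lowest DBD library was above the highest Estop library. Vector entries decided exclusions given below, so this gap describes the libraries kept and is no check of the labels. The repressor entry had a median of 660 CPM in the 40 WT nZFP libraries, of 8.69 CPM in those with DBD and of 10.4 CPM in those with Estop. The entry named for the DBD construct was at 0 in all of them, so that WPRE, and no entry of its own, marks DBD. Total gene counts ran between 29.8 M and 50.0 M in DBD libraries and between 30.5 M and 48.7 M in Estop libraries. The libraries labelled WT DBD 6M_8M R7 and R8 held 321 and 480.5 CPM of the repressor entry and were left out. The library labelled WT DBD 2M_6M R6 held 59.2 CPM of WPRE and was left out too, as was WT DBD 6M_10M R2, which stood apart in its expression (WPRE of 2942 CPM).

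Of 16115 genes tested, 543 (3.37%) passed an adjusted p of 0.05 in edgeR's quasi-likelihood test with Benjamini-Hochberg adjustment. They were 168 genes (1.04%) higher under DBD and 375 genes (2.33%) lower under DBD. At an unadjusted p under 0.05 there were 2034 genes. The median log2 fold change of all genes tested was 0.01. With scaling to total counts in place of trimmed means, the split was 382 higher and 207 lower, so that 64.9% of the calls were higher, against 30.9% in the main analysis. With the mouse as a replicate block, 256 genes were higher and 488 lower. That fit rests on the 18 mice with both viruses, in which virus and hemisphere cannot be told apart. It shared 104 of the 168 higher and 249 of the 375 lower genes. Without the 6M_10M libraries, 92 were higher and 205 lower.

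Genes of the 2 directions lay at different levels. The higher genes had a median level of 2.18 CPM per kb of exon, the lower genes one of 20.8 CPM per kb, and all genes tested one of 3.33 CPM per kb. Of the higher genes, 17 exceeded a log2 fold change of 1. Only 2 of the lower genes, Fgf17 and Gm26883, had a change of that size, and 244 of the 375 lay within 0.2 of zero. The same sign was found in all 5 paradigms for 155 of the 168 higher and 364 of the 375 lower genes, beside 2690 of all 16115. Both sets were called on the combined effect over these paradigms, which favours a shared sign, so the shares are a description only. Fgf17, a fibroblast growth factor gene named after its values were seen, had 0.177 ± 0.0956 CPM under DBD and 0.449 ± 0.274 CPM under Estop (log2 fold change -1.37, SE 0.19, adjusted p = 1.94e-07, edgeR). Gm26883, named in the same way, had no count in any DBD library and 0.213 ± 0.681 CPM under Estop. It could pass the filter on low counts only through the Estop libraries, so its direction is a description only.

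**Figure D1:**
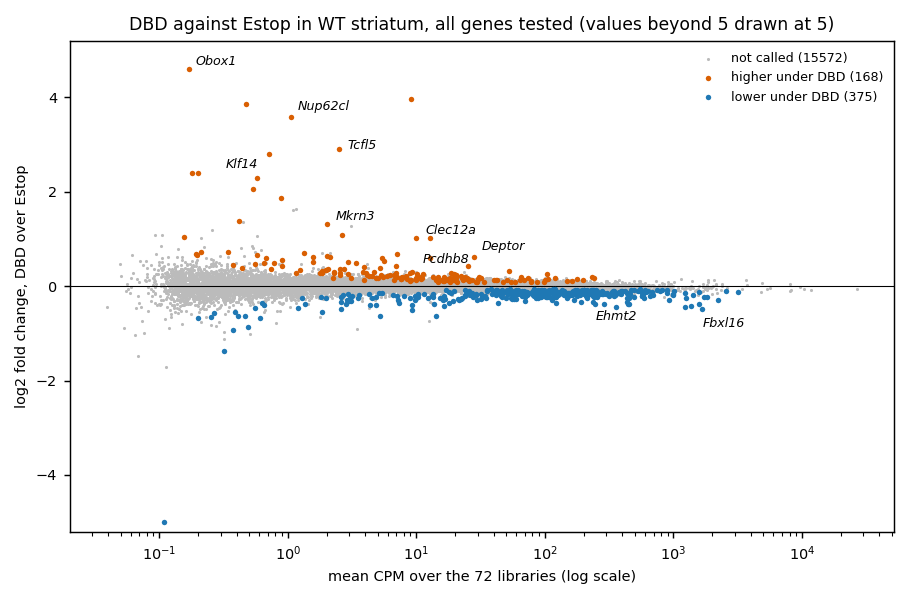
Log2 fold change of DBD over Estop in WT striatum (vertical axis) against mean CPM over the 72 libraries (horizontal log axis) for 16115 genes. Orange points are the 168 genes higher under DBD and blue points the 375 lower. Of the called genes with a change of more than 1, 17 are higher and 2 lower, and over all genes plotted 34 lie beyond 1 in either direction, while 244 of the 375 lower genes lie within 0.2 of zero.

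A small set of genes rose under DBD in every paradigm. In tests within each paradigm, 23 genes passed in 2M_6M (0.143% of those tested), 35 in 2M_8M (0.217%), 58 in 6M_8M (0.36%, of which 37 were lower, 0.23%), 38 in 6M_10M (0.236%) and 38 in 6M_12M (0.236%). 14 genes were higher and 4 were lower in all 5 of them. The 14 were Tcfl5, Nup62cl, Mkrn3, Klf14, Clec12a, Obox1, Fancd2, Gm13016, Theg, Sohlh1, Lrrc8e, Ccdc42, Pcdhb8 and Pcdhb18, and the 4 were Fbxl16, Git1, Ubqln4 and Cyld. Of the 14, Obox1 and Lrrc8e could pass the filter on low counts only through the DBD libraries. For 5 genes (0.031% of those tested), Tcfl5, Nup62cl, Mkrn3, Klf14 and Clec12a, every DBD library lay above every Estop library of its paradigm in all 5 paradigms. No gene had every DBD library below every Estop library in all 5.

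The stretch of DNA around the transcription start is shown for 4 of these 5 higher genes and for Fbxl16, the lower gene with the smallest p, so that the start regions of the genes can be read side by side. Each window runs from 250 bases before to 50 bases after the RefSeq start (GRCm38.p6), 5′ to 3′ on the gene's strand, with CG dinucleotides, the sites of DNA methylation, in capitals. The windows are chr2:180642642-180642941 for Tcfl5 (minus strand, 35 CG), chrX:140062519-140062818 for Nup62cl (minus strand, 21 CG), chr7:62420104-62420403 for Mkrn3 (minus strand, 15 CG), chr6:129349994-129350293 for Clec12a (plus strand, 3 CG) and chr17:25808211-25808510 for Fbxl16 (plus strand, 5 CG). The RefSeq starts need not be the outermost ends of the gene spans given below: the Clec12a window lies inside the span of that gene, and the Fbxl16 window lies before the span of that gene.
Tcfl5: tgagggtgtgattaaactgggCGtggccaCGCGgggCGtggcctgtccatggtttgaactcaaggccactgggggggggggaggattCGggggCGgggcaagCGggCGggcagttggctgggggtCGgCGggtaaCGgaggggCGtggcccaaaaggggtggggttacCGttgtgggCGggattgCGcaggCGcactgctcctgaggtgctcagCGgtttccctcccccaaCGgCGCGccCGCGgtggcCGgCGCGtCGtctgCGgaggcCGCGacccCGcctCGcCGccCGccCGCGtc
Nup62cl: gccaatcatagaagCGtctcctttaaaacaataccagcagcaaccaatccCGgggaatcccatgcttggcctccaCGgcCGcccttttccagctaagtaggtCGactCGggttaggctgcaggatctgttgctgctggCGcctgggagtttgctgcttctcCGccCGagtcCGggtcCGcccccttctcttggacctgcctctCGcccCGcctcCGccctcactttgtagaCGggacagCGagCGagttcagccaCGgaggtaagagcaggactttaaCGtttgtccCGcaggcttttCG
Mkrn3: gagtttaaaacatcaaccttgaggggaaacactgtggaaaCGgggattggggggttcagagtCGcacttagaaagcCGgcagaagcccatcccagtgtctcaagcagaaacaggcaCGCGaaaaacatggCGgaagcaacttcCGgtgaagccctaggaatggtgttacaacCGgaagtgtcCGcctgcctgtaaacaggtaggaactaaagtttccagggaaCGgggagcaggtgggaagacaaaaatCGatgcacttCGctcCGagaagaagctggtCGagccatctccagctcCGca
Clec12a: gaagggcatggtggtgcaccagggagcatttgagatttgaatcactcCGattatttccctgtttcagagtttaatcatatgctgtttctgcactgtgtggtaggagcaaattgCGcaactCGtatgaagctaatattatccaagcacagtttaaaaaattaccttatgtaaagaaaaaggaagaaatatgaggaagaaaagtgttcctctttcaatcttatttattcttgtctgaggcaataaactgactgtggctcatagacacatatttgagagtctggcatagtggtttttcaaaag
Fbxl16: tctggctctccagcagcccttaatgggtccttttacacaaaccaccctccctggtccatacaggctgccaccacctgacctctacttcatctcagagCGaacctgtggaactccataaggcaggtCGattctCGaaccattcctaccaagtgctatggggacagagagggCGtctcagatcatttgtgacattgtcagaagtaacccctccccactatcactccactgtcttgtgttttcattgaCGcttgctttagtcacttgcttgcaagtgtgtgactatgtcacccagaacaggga

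The 5 windows ranged widely in CG content. Of the genes called, 115 of the 168 higher and 280 of the 375 lower had a window in the RefSeq table. The median was 15 CG in windows of higher genes, 25 CG in windows of lower genes and 20 CG over the 12060 windows of all genes tested. The E-box CACGTG, a site of basic helix-loop-helix factors, was in 6.96% of the windows of higher genes, 7.50% of those of lower genes and 9.58% of all, on either strand. CAGCAGCAG, a short run of the repeat that the complete repressor is designed to read, was in 3.48%, 1.79% and 1.97% in the same order. TGACGTCA, the cyclic AMP response element, was in 2.61%, 5.36% and 2.99%. A match describes the letters of a window and no binding, and none of these shares was tested.

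Tcfl5 encodes a basic helix-loop-helix transcription factor known from the mouse testis (chromosome 2, 180621956 to 180642708, GRCm38). It stood at 1.82, 4.36 and 7.20 CPM (lowest, median and highest) in the 35 DBD libraries, against 0.178, 0.572 and 1.61 CPM in the 37 Estop libraries. The groups did not overlap, and all 18 mice that had both viruses were higher on the DBD side. The mean was 4.47 ± 1.23 CPM under DBD and 0.613 ± 0.300 CPM under Estop (SD, n = 35 and 37), a log2 fold change of 2.90 (SE 0.12, adjusted p = 4.77e-32, edgeR). Its fold changes were 2.87 in 2M_6M, 3.18 in 2M_8M, 2.21 in 6M_8M, 3.29 in 6M_10M and 2.98 in 6M_12M, and values for 5 paradigms keep that order from here on. The 6M_8M value, with 2 months of treatment, was the lowest of the 5, but a difference of the effect between paradigms did not pass for Tcfl5 (adjusted p = 1.00).

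Nup62cl is an X-linked gene named for its likeness to the nuclear pore protein Nup62 (chromosome X, 140006805 to 140062712). It lay at 0.652, 1.93 and 4.67 CPM in DBD libraries, against 0, 0.166 and 0.389 CPM in Estop libraries. The lowest DBD library was above the highest Estop library. The log2 fold change was 3.58 (SE 0.17, adjusted p = 8.04e-28, edgeR), with 4.49, 3.47, 2.82, 3.45 and 3.84 in the 5 paradigms.

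Mkrn3 and Klf14 are both imprinted in mice. Mkrn3, a ubiquitin ligase of the Prader-Willi region that is expressed from the paternal allele (chromosome 7, 62417593 to 62420139), ran at 1.55, 2.85 and 4.94 CPM in DBD libraries, against 0.622, 1.08 and 1.87 CPM in Estop libraries. Over all paradigms the ranges of Mkrn3 overlapped, and within each paradigm they were apart. Its log2 fold change was 1.33 (SE 0.07, adjusted p = 3.36e-24, edgeR) and stayed between 1.26 and 1.46 in the 5 paradigms. Klf14, a Kruppel-like transcription factor expressed from the maternal allele (chromosome 6, 30956023 to 30959078), ran at 0.387, 1.18 and 2.89 CPM in DBD libraries, against 0.0471, 0.152 and 0.536 CPM in Estop libraries, at a log2 fold change of 2.81 (SE 0.16, adjusted p = 3.36e-24, edgeR). All 18 mice with both viruses were higher on the DBD side for both genes.

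Clec12a encodes a C-type lectin receptor known from myeloid cells (chromosome 6, 129342691 to 129365303). Its level was 9.67, 13.3 and 19.1 CPM in DBD libraries, against 4.36, 6.32 and 8.97 CPM in Estop libraries. No DBD library reached down to the Estop range. The log2 fold change was 1.02 (SE 0.06, adjusted p = 4.27e-24, edgeR), with 0.89 to 1.14 in the 5 paradigms. Beside it, 0 of 20 microglial markers and 0 of 10 markers of border macrophages and monocytes passed, where 3.37% of all genes tested did. The summed level of the microglial list was 863, 1021 and 1342 CPM in DBD libraries, against 771, 976 and 1336 CPM in Estop libraries.

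**Figure D2:**
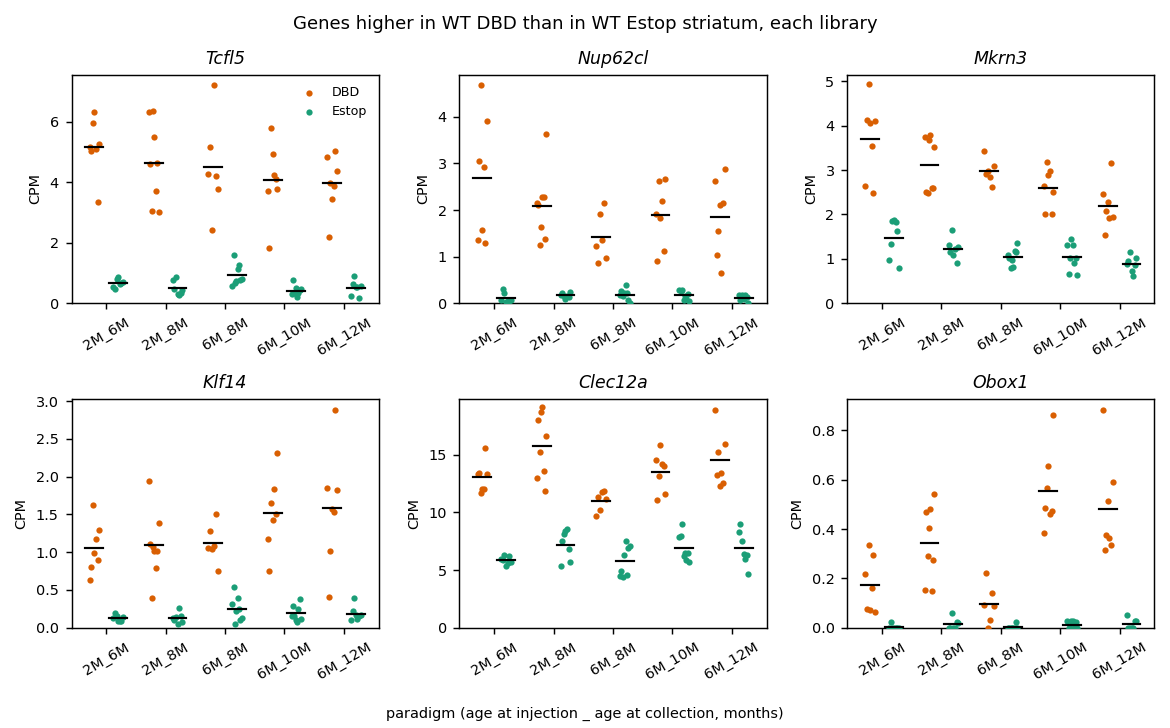
CPM of 6 genes in each WT library (points, with the group mean as a black line) by paradigm, DBD in orange left of Estop in green. Tcfl5, Nup62cl, Mkrn3, Klf14 and Clec12a have no overlap between the viruses within any paradigm, and Obox1 is at or near 0 in Estop libraries.

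Obox1, an oocyte-specific homeobox gene of a family of near-identical copies, lay at 0, 0.335 and 0.883 CPM in DBD libraries, against 0, 0 and 0.0592 CPM in Estop libraries, so that most Estop libraries had no count. Its log2 fold change was 4.61 (SE 0.26, adjusted p = 5.47e-24, edgeR). Of 7 Obox genes in the annotation, 2 passed the filter on low counts. Both could pass it only through the DBD libraries, where they are high, so the direction of the members kept is a description only. The second, Obox5, chosen after its values were seen, had 0.351 ± 0.306 CPM under DBD and 0.0577 ± 0.0551 CPM under Estop (log2 fold change 2.40, adjusted p = 2.91e-12, edgeR). Reads can be shared between Obox copies, so the values of single members are uncertain. Sohlh1, a helix-loop-helix factor of germ cells, had 1.43 ± 0.547 CPM under DBD and 0.372 ± 0.198 CPM under Estop, a log2 fold change of 1.86 (SE 0.14, adjusted p = 7.19e-18), and its start window held 3 CACGTG. Theg, known from spermatids, had 0.883 ± 0.292 CPM under DBD and 0.206 ± 0.0901 CPM under Estop, at 2.05 (SE 0.13, adjusted p = 7.45e-21).

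Fancd2, a protein of the Fanconi anemia pathway that repairs DNA crosslinks, had 3.62 ± 0.912 CPM under DBD and 1.69 ± 0.444 CPM under Estop. Its log2 fold change was 1.09 (SE 0.07, adjusted p = 7.48e-22, edgeR), and 17 of 18 mice were higher on the DBD side. Lrrc8e, a subunit of volume-regulated anion channels, had 0.307 ± 0.131 CPM under DBD and 0.0570 ± 0.0493 CPM under Estop (2.40, SE 0.22). Like Obox1, Lrrc8e could pass the filter on low counts only through the DBD libraries, so its direction is a description only. Ccdc42, a coiled-coil protein of sperm tail formation, had 6.63 ± 1.34 CPM under DBD and 4.23 ± 0.868 CPM under Estop (0.59, SE 0.05). Gm13016 is annotated as a long intergenic RNA and had 0.976 ± 0.347 CPM under DBD and 0.191 ± 0.0855 CPM under Estop (2.29, SE 0.14).

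Clustered beta protocadherins, cell adhesion genes in tandem that give neurons surface identity, moved in both directions. Of 22 members, all tested, 11 were higher and 2 lower, beside 1.04% and 2.33% of all genes tested, and their median log2 fold change was 0.13, beside 0.01 over all genes tested. Pcdhb8 ranged over 6.79, 17.6 and 33.7 CPM in DBD libraries, against 3.54, 7.89 and 14.9 CPM in Estop libraries. The ranges overlapped, but all 18 mice with both viruses were higher on the DBD side, and the log2 fold change of Pcdhb8 was 1.02 (SE 0.07, adjusted p = 1.11e-18, edgeR). Pcdhb18 was higher at 0.60 (SE 0.05), and Pcdhb22 at 0.39 (SE 0.06). Pcdhb13 was lower at -0.37 (SE 0.05, adjusted p = 4.68e-07), with 6.41 ± 1.23 CPM under DBD and 8.13 ± 1.10 CPM under Estop. The copies share sequence, so reads may have been divided between them in ways that the deposited values do not show.

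Among the other genes with the largest increases at 1 CPM or more, Deptor, an inhibitor of mTOR kinase complexes, had 34.2 ± 8.61 CPM under DBD and 22.3 ± 5.90 CPM under Estop. Its log2 fold change was 0.61 (SE 0.08, adjusted p = 2.56e-08, edgeR), with 0.36 in 2M_6M and 0.60 to 0.73 in the other paradigms. Col26a1, a collagen gene, was higher by 0.71 (SE 0.10) and Prr36 by 0.68 (SE 0.10). Scn9a, the voltage-gated sodium channel Nav1.7 gene, was higher by 0.64 (SE 0.12) and Slc2a12, a glucose transporter, by 0.61 (SE 0.11). Il2rb, the beta chain of the interleukin 2 and 15 receptors, had 1.93 ± 0.476 CPM under DBD and 1.23 ± 0.336 CPM under Estop (0.62, SE 0.10, adjusted p = 3.27e-06). The DBD and Estop ranges of these 6 genes overlapped, and 16 to 18 of the 18 mice were higher on the DBD side.

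**Figure D3:**
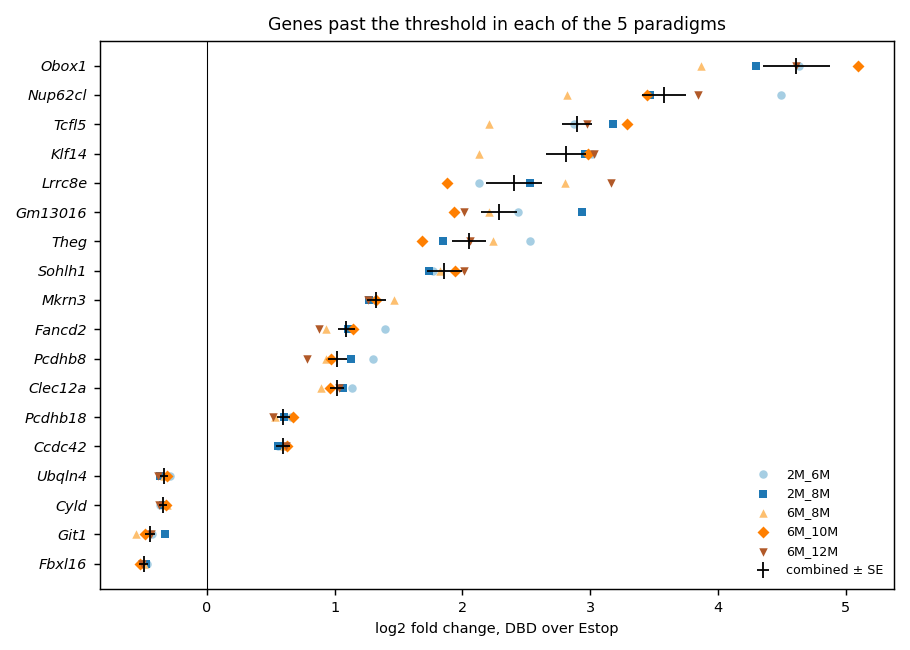
Log2 fold change of DBD over Estop in each of the 5 paradigms (coloured symbols) and combined (black bar with SE) for the 18 genes past the threshold in all 5. The 14 higher genes lie between 0.52 and 5.10 in single paradigms, and the 4 lower genes between -0.29 and -0.55.

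Most genes lower under DBD changed by small amounts. Fbxl16, a substrate adaptor of ubiquitin ligases found in brain (chromosome 17, 25809085 to 25821255), lay at 1158, 1366 and 1935 CPM in DBD libraries, against 1291, 1957 and 2264 CPM in Estop libraries. The highest DBD libraries reached into the Estop range, within 2M_6M, 2M_8M and 6M_10M the groups were apart, and 17 of 18 mice were lower on the DBD side. The mean was 1408 ± 169 CPM under DBD and 1923 ± 181 CPM under Estop, at a log2 fold change of -0.49 (SE 0.03, adjusted p = 7.59e-20, edgeR), and the 5 paradigms gave -0.47, -0.48, -0.49, -0.52 and -0.51.

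Git1, a scaffold with GTPase-activating function for Arf proteins at synapses, had 306 ± 38.0 CPM under DBD and 406 ± 42.5 CPM under Estop (log2 fold change -0.44, SE 0.04, adjusted p = 8.01e-16, edgeR). Ubqln4, a ubiquilin that carries proteins to the proteasome, had 169.6 ± 17.4 CPM under DBD and 208 ± 18.5 CPM under Estop (-0.34, SE 0.03). Cyld, a deubiquitinase present at postsynaptic densities, had 388 ± 33.1 CPM under DBD and 481.5 ± 40.9 CPM under Estop (-0.34, SE 0.03). Git1 and Cyld were lower in 18 of 18 mice and Ubqln4 in 17.

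Ehmt2, chosen after its values were seen, encodes the histone H3 lysine 9 methyltransferase G9a. It lay at 159, 208 and 255 CPM in DBD libraries, against 211, 259.8 and 297 CPM in Estop libraries. Most DBD libraries lay below the lowest Estop library, and 18 of 18 mice were lower on the DBD side (log2 fold change -0.33, SE 0.03, adjusted p = 7.02e-16, edgeR). Reep6, which shapes the endoplasmic reticulum, had the largest decrease at 1 CPM or more, with 11.2 ± 2.36 CPM under DBD and 17.1 ± 2.66 CPM under Estop (-0.64, SE 0.06, adjusted p = 7.50e-14). Its paradigms gave -0.51, -0.52, -0.83, -0.68 and -0.66. Nrtn, the trophic factor neurturin, was lower (-0.63, SE 0.10), at 4.14 ± 1.47 CPM under DBD and 6.20 ± 2.19 CPM under Estop.

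The remaining genes named for large decreases at 1 CPM or more lay between -0.39 and -0.54. Tmem114 was at -0.54, Hapln4, a link protein of perineuronal nets, at -0.51 and the transcription factor Mafa at -0.49. The class I antigen presentation relative H2-Q2 was at -0.46, Sbsn at -0.42, the Arf regulator Agap2 at -0.41, Lor at -0.40 and Gadd45b, a gene induced by neuronal activity, at -0.39. Their SE were 0.06 to 0.10, and 13 to 18 of the 18 mice were lower on the DBD side. With all 76 labelled libraries Lor missed the threshold (-0.29, adjusted p = 0.083).

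**Figure D4:**
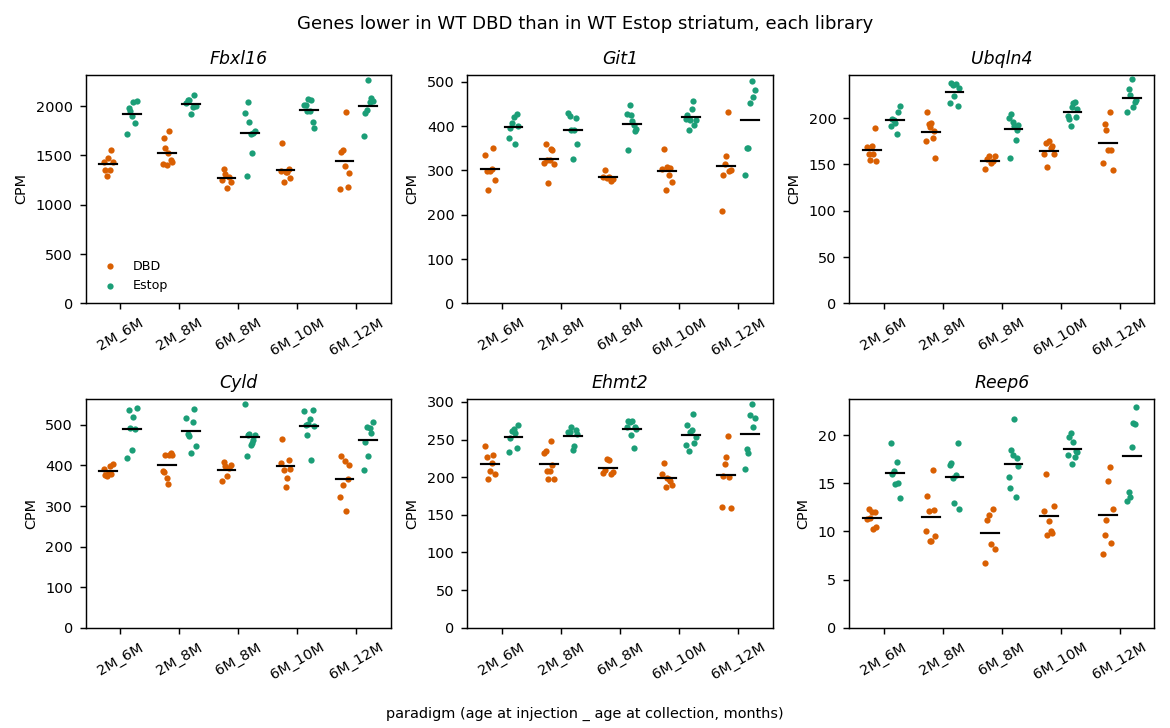
CPM of 6 genes lower under DBD in each WT library (points, with the group mean as a black line) by paradigm, DBD in orange left of Estop in green. Fbxl16 averages 1408 CPM under DBD and 1923 CPM under Estop, and the ranges of the viruses overlap in some paradigms.

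Synaptic vesicle release was the list with the most members called. Of 16 genes, 5 were lower and 0 higher, at a median log2 fold change of -0.08, beside 2.33% lower and a median of 0.01 over all genes tested. With the mouse as a replicate block 9 were lower, beside 488 of all 16115 genes. Cplx2, a complexin that clamps and triggers fusion, lay at 989, 1736 and 2030 CPM in DBD libraries, against 1338, 2073 and 2307 CPM in Estop libraries, with wide overlap and 17 of 18 mice lower on the DBD side. Its log2 fold change was -0.24 (SE 0.04, adjusted p = 1.40e-05, edgeR). Cplx1 was at -0.14 and the SNARE proteins Snap25 and Vamp2 were at -0.11 and -0.09, all with SE of 0.02 to 0.03. The summed level of the list had a median of 8476 CPM in DBD libraries and 9136 CPM in Estop libraries. Of 7 genes sensitive to RNA quality and dissociation none passed, at a median of 0.08 and summed levels of 323, 460.25 and 1732 CPM in DBD libraries, against 327, 451 and 1495 CPM in Estop libraries. With the mouse as a replicate block 2 of the 7 were higher, beside 256 of all 16115 genes.

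The 30 identity genes of medium spiny neurons had a median log2 fold change of -0.07, beside 0.01 over all genes tested. Their values ran from -0.36 to 0.11. Ppp1r1b, which encodes DARPP-32, stood at 3398 CPM under DBD and 3430.4 CPM under Estop, the D1 receptor gene Drd1 at 273 CPM under DBD and 271 CPM under Estop, and the D2 receptor gene Drd2 at 209.7 CPM under DBD and 214 CPM under Estop, and none of these 3 passed. Of the 30 identity genes, 2 were lower, beside 2.33% of all genes tested. They were Rasgrp2 (-0.14, SE 0.03) and the phosphodiesterase Pde1b (-0.12, SE 0.03). Both missed the threshold with the mouse as a replicate block (adjusted p = 0.11 and 0.077, edgeR). With library length index as a covariate 11 of the 30 were lower, beside 764 of all 16115 genes. None of 10 direct pathway genes passed. Of 8 indirect pathway genes, the adenosine receptor gene Adora2a was lower (-0.21, SE 0.04, adjusted p = 1.17e-05, 530.1 ± 64.0 CPM under DBD and 597 ± 72.2 CPM under Estop) and Upb1 higher (0.27, SE 0.06, adjusted p = 0.00139). Upb1 missed the threshold without the 6M_10M libraries (0.22, adjusted p = 0.076) and with all 76 labelled libraries (0.22, adjusted p = 0.082). None of 15 interneuron markers and none of 22 immediate early genes passed, beside 3.37% of all genes tested. With the mouse as a replicate block 1 immediate early gene was lower, beside 488 of all 16115 genes.

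Lists on the response to the virus and on stress held few or no calls. Over all genes tested 3.37% were called, a share at which lists of this size hold few calls or none. None of 30 interferon response genes, 17 class I and 8 class II antigen presentation genes, 15 complement genes, 8 chemokines and adhesion genes, 19 genes of disease-associated microglia and 12 B and plasma cell genes passed. With the mouse as a replicate block 1 interferon response gene was higher and 1 B and plasma cell gene lower, beside 256 and 488 of all 16115 genes. With the mouse as a random block 1 interferon response gene and 1 class II gene were higher, beside 478 of all genes. Of 9 measured genes of T and natural killer cells, Il2rb was higher and Thy1, which neurons express too, was lower (-0.12, SE 0.02). None of 20 genes of the unfolded protein response, 16 heat shock genes and 12 p53 response genes passed. With the mouse as a replicate block 3 unfolded protein genes, 3 heat shock genes and 1 p53 gene were lower, beside 488 of all 16115 genes. Of 14 measured genes of neuronal injury, Sprr1a was lower (-0.63, SE 0.15, adjusted p = 0.00443, 0.326 ± 0.156 CPM under DBD and 0.488 ± 0.217 CPM under Estop), and without the 6M_12M libraries Sprr1a missed the threshold (-0.52, adjusted p = 0.060). A p above the threshold does not show that a list was equal in both groups.

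Zinc finger repressors commonly act through the KRAB domain and its partner KAP1. None of 18 genes of that silencing machinery passed, beside 3.37% of all genes tested. With the mouse as a replicate block 1 of the 18 was lower, beside 488 of all 16115 genes. Trim28, which encodes KAP1, had 117 ± 9.33 CPM under DBD and 112 ± 9.22 CPM under Estop, and the methyltransferase gene Setdb1 had 25.7 ± 5.41 CPM under DBD and 24.1 ± 4.80 CPM under Estop (adjusted p = 0.61 and 0.32, edgeR). Of 11 measured homeobox and Polycomb-repressed factors, Pou3f1 was lower (-0.23, SE 0.05, adjusted p = 0.000483), and not with all 76 labelled libraries (-0.20, adjusted p = 0.052).

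Of the glial and vascular lists, that of microglia is given above. Over all genes tested 3.37% passed, at a median of 0.01. None of 15 astrocyte, 16 oligodendrocyte, 12 oligodendrocyte precursor, 15 endothelial, 12 mural and 12 fibroblast markers passed, at list medians of 0.05, 0.12, 0.10, 0.05, 0.10 and 0.12. With the mouse as a replicate block 1 fibroblast marker was higher, and with the mouse as a random block or replicate numbers as a block 3 oligodendrocyte markers were higher. Of all 16115 genes, 256, 478 and 348 were higher in these fits, in that order. Replicate numbers as a block also gave 1 higher oligodendrocyte precursor marker and 1 higher mural marker. Summed oligodendrocyte markers had a median of 9141 CPM (7003 to 15007) in DBD libraries, against 8206 CPM (6344 to 13942) in Estop libraries. Of 22 measured reactive astrocyte genes, Cd44 was higher (0.28, SE 0.08, adjusted p = 0.0344), and with the mouse as a replicate block it was at 0.08 (adjusted p = 0.78). Cd44 also missed it when any single paradigm was left out (adjusted p = 0.054 to 0.23). The part of these cell types in the results above was not tested.

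Ttr, the transthyretin gene of the choroid plexus, was the only call of its list of 8 measured genes (3.97, SE 1.08, adjusted p = 0.0195, edgeR). It rested on the 6M_8M DBD library R6, which held 639 CPM, while the other DBD libraries held at most 3.22 CPM and the Estop libraries at most 2.70 CPM. Without that library the value was -0.65 (adjusted p = 0.79), and 150 genes were higher and 341 lower in all.

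Htt, the gene that the complete repressor is directed at, was not called. It lay at 54.0, 126 and 165 CPM in DBD libraries, against 60.0, 144 and 184 CPM in Estop libraries, with nearly full overlap (log2 fold change -0.19, SE 0.07, adjusted p = 0.143, edgeR). In the 5 paradigms it was at -0.25, -0.08, -0.22, -0.20 and -0.21, and 13 of 18 mice were lower on the DBD side. It passed with the length index as a covariate (-0.22, adjusted p = 6.76e-09) and with replicate numbers as a block (-0.20, adjusted p = 0.00596), and not with the mouse as a replicate block (-0.14, adjusted p = 0.19). None of 9 polyglutamine disease genes, Htt included, passed, beside 3.37% of all genes tested. With the mouse as a replicate block 1 was lower, beside 488 of all 16115 genes.

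The effect of DBD was not shown to depend on age, duration or sex for the genes named above. A test of any difference between the 5 paradigms called 0 genes (217 at an unadjusted p under 0.05), and injection at 2 months against injection at 6 months called 0 genes (407 unadjusted), both by edgeR. The longest against the shortest treatment after injection at 6 months called 1 gene, the immunoglobulin gene Ighg1 (0.00621%), and males against females called 1, Gm20388 (0.00621%). Neither was called with hemisphere as a covariate. In females and males alone, Tcfl5 was higher by 2.90 and 2.89, Mkrn3 by 1.30 and 1.36, and Fbxl16 was at -0.51 and -0.47.

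Among DBD libraries, the level of vector transcript was set against each gene by the slope on log2(WPRE CPM + 1) with paradigm and sex in the model. In all, 7967 of 15692 genes (50.8%) passed, and with the library length index, the median deviation of long transcripts minus that of short ones, as a covariate 47 did. Of the genes higher under DBD, 42 of 166 had a positive and 13 a negative slope, beside 24.6% and 26.2% of all genes. Of those lower under DBD, 30 of 373 had a positive and 129 a negative slope. With the length index as a covariate, 2 of the genes higher under DBD had a positive and 0 a negative slope, and 0 of those lower under DBD had a positive and 5 a negative slope. In that fit 22 of all 15692 genes (0.140%) had a positive and 25 (0.159%) a negative slope. Klf14 had a slope of 0.38 per doubling of WPRE (SE 0.09) and of 0.72 (SE 0.13, adjusted p = 0.0210) with the length index, and Deptor of 0.34 (SE 0.04) and 0.24 (SE 0.05, adjusted p = 0.0400). Tcfl5 had a slope of 0.09 (SE 0.08, adjusted p = 0.36) and Clec12a one of -0.11 (SE 0.04, adjusted p = 0.0270), which was 0.09 (SE 0.05) with the length index. The genes with the smallest p in this test were Jakmip2, Deptor and Agap1 upward (0.38, 0.34 and 0.36) and Necap1, Fam241b and Eif3h downward (-0.22, -0.26 and -0.30), and of these only Deptor was called between the viruses.

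The same pair of viruses was compared in zQ175 mice, with 39 DBD and 40 Estop libraries. There, 511 genes passed (3.08%), of which 119 were higher (0.718%) and 392 lower (2.37%) under DBD. Of the 168 genes higher in WT mice, 57 were higher in zQ175 mice, which is 57 of their 119, and 158 had a positive sign. 1 of the 168, Ttr, was lower in zQ175 mice (-2.52, SE 0.73, adjusted p = 0.0289). Its median in zQ175 mice was 0 CPM under both viruses, and its highest library held 2.39 CPM under DBD and 26.7 CPM under Estop. This value therefore rests on scattered libraries. Of the 375 lower in WT mice, 240 were lower in zQ175 mice, which is 240 of their 392, and 369 had a negative sign. Fbxl16 fell by 0.49 in WT and by 0.42 in zQ175 mice, Ehmt2 by 0.33 and 0.27, and Git1 by 0.44 and 0.38.

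The effect itself differed between the genotypes for 11 of 16567 genes (0.0664%, edgeR on the virus by genotype term), positive in WT relative to zQ175 for 9 (0.0543%) and negative for 2 (0.0121%). Tcfl5 was raised by 2.90 (SE 0.12) in WT mice and by 1.83 (SE 0.09) in zQ175 mice, a difference of 1.07 on the log2 scale (SE 0.14, adjusted p = 9.30e-08). The zQ175 means were 6.84 ± 2.26 CPM under DBD and 1.88 ± 0.513 CPM under Estop. Both lay above the WT means of 4.47 ± 1.23 and 0.613 ± 0.300 CPM, so the smaller zQ175 fold change starts from a higher Estop level. Nup62cl was raised by 3.58 in WT and by 1.88 in zQ175 mice (difference 1.70, SE 0.32, adjusted p = 0.00159), with zQ175 means of 0.288 ± 0.205 CPM under DBD and 0.0756 ± 0.0741 CPM under Estop. Lrrc8e was raised in WT mice and stood at 0.0254 ± 0.0292 CPM under DBD and 0.0224 ± 0.0294 CPM under Estop in zQ175 mice (difference 2.34, SE 0.47, adjusted p = 0.00509). Mei1, a gene of meiosis chosen after its values were seen, was raised by 0.37 in WT mice and was at -0.02 in zQ175 mice (difference 0.39, SE 0.08, adjusted p = 0.0145). The difference did not pass for Mkrn3, Klf14, Clec12a or Fancd2. It did not pass for Obox1 either (4.62, SE 1.02, adjusted p = 0.061), which had 0.00270 ± 0.0105 CPM under DBD and 0.00229 ± 0.00700 CPM under Estop in zQ175 mice.

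**Figure D5:**
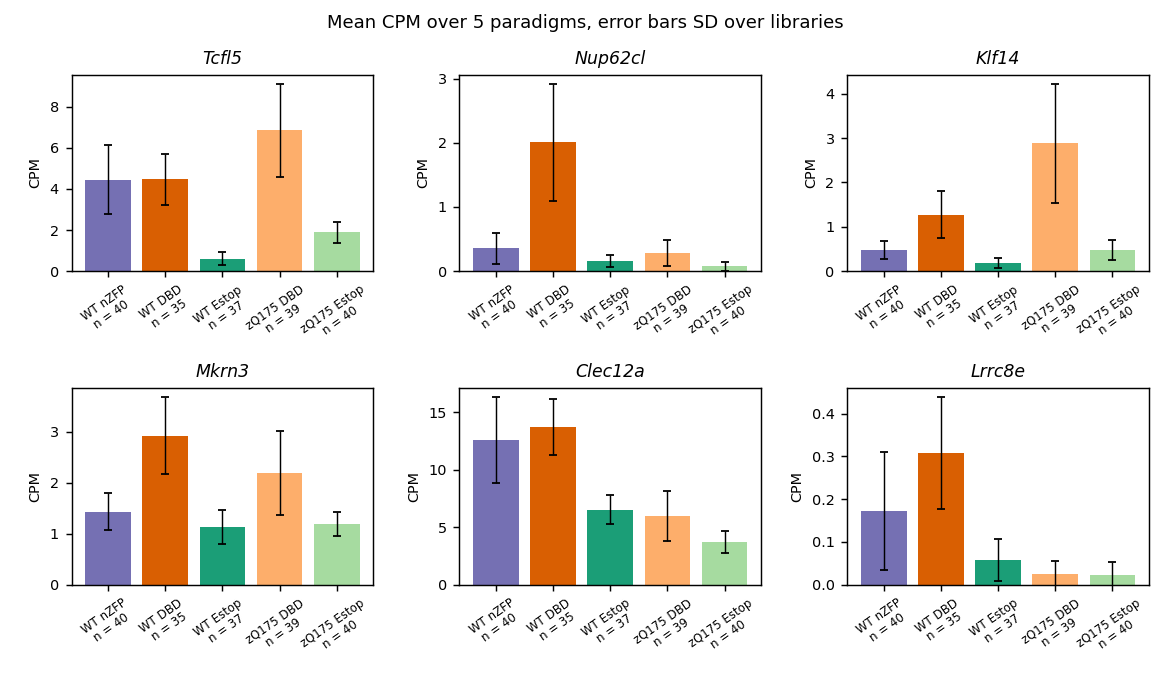
Mean CPM of 6 genes over 5 paradigms in WT nZFP, DBD and Estop libraries and in zQ175 DBD and Estop libraries (bars, with SD over libraries as error bars, n under each bar). Nup62cl is high under WT DBD, at 2.01 CPM, and low in the other 4 groups, while Tcfl5 and Clec12a under WT nZFP are close to WT DBD.

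The complete repressor, nZFP, gives a second protein-expressing virus in WT mice, compared with the same Estop libraries, so that the 2 comparisons are not independent and are given side by side only. Against Estop, nZFP called 1051 of 16015 genes (6.56%), 439 higher (2.74%) and 612 lower (3.82%). Tcfl5 had 4.45 ± 1.68 CPM under nZFP, 4.47 ± 1.23 CPM under DBD and 0.613 ± 0.300 CPM under Estop. Clec12a had 12.6 ± 3.76 CPM under nZFP, 13.7 ± 2.45 CPM under DBD and 6.52 ± 1.29 CPM under Estop, and Sohlh1 had 1.36 ± 0.569, 1.43 ± 0.547 and 0.372 ± 0.198 CPM in the same order. Nup62cl had 0.359 ± 0.240 CPM under nZFP, 2.01 ± 0.910 CPM under DBD and 0.154 ± 0.0925 CPM under Estop. Mkrn3 had 1.43 ± 0.372 CPM under nZFP, 2.92 ± 0.753 CPM under DBD and 1.13 ± 0.331 CPM under Estop, and Klf14 had 0.478 ± 0.213, 1.27 ± 0.522 and 0.179 ± 0.110 CPM. A test of nZFP against DBD, added after the levels were seen, called 778 of 16084 genes (4.84%), 439 higher (2.73%) and 339 lower (2.11%). It gave -2.45 for Nup62cl, -0.9955 for Mkrn3 and -1.41 for Klf14 (adjusted p = 9.95e-21, 5.01e-19 and 3.80e-14, edgeR), and did not pass for Tcfl5, Clec12a or Sohlh1 (adjusted p = 0.92, 0.33 and 0.92). Their differences were -0.02 (SE 0.10), -0.11 (SE 0.06) and -0.03 (SE 0.12). Median WPRE, the element both vectors carry, was 1053 CPM in nZFP and 2187 CPM in DBD libraries.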

How the data were processed

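RNA was measured by stranded polyA sequencing of 1 striatal hemisphere per library, per the labels. The deposited values are expected counts per gene that the authors made with RSEM on GRCm38, per the submitters' processing notes, and 90.44% of them are whole. The annotation release and the strand setting of the counting were not given in the sources used here. Another table of the series was not analysed here. Counts were rounded to whole numbers, 6 vector entries were kept out of library sizes, and genes were filtered with filterByExpr (count minimum 10), which left 16115. DBD minus Estop was tested with edgeR 4.0.16 in R 4.3.3 (TMM, quasi-likelihood test, paradigm and sex as terms, Benjamini-Hochberg adjustment, threshold 0.05). CPM are counts scaled to a common total of gene counts. Alternatives used DESeq2 1.42.0, limma 3.58.1, other scalings, filters, blocks and sets of libraries. The tests were tested on simulated data.

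The genes named were the 12 with the largest change per direction among those called with a mean of at least 1 CPM, up to 2 list members called with the smallest p, up to 3 per direction in tests of differences, Htt, and those called in all 5 paradigms, a rule added later. Other genes were chosen after their values were seen. The comparison and the lists were chosen with earlier results of these data known. Sample identifiers in the labels give the mouse: in 17 of 18 mice with both viruses the hemispheres deviated together (r over 0.1), with a median r of 0.228. All other mice of the comparison of WT DBD with WT Estop contribute 1 library to it. The correlation within a mouse that limma estimated was 0.465. Where nothing says otherwise, libraries are separate hemispheres, and intervals and p-values cover the spread between them. The main fit had no term for the mouse, so its SE and p-values treat the 2 hemispheres of those 18 mice as independent. The fits with zQ175 or nZFP libraries had no such term either. Some zQ175 mice gave both a DBD and an Estop library, and some WT mice both an nZFP and a control library. The SE and p-values of those fits treat such hemispheres as independent too. No 2 libraries were identical, with a highest correlation of 0.992. Some called genes are not reported here.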

Additional observations from a re-analysis of the deposited data

Results flagged for a closer look

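Of 108 groups of 4 to 10 libraries, over 11 measures, 13 (12%) held a library far from the others by Dixon's test. Chance gives about 1 in 20 for normally spread values. Many of the 13 are groups of Obox1 and Ttr, where most libraries are at or near 0 and a count or so can stand apart. The share of 12% therefore cannot be read as an excess over chance. The Nup62cl level in the WT DBD 2M_8M library R8 was 3.63 CPM, with the nearest at 2.28 CPM. Fbxl16 in the WT DBD 6M_10M library R3 was 1622 CPM, with the nearest at 1358 CPM. WPRE in the WT Estop 6M_10M library R2 was 114 CPM, with the nearest at 53.5 CPM. Klf14 in the WT Estop 6M_12M library R3 was 0.394 CPM, with the nearest at 0.217 CPM. Obox1 stood apart in Estop libraries at 0.0241 CPM in 2M_6M, 0.0592 CPM in 2M_8M and 0.0248 CPM in 6M_8M. Ttr stood apart in DBD libraries at 2.11 CPM in 2M_6M, 0.0242 CPM in 2M_8M and 639 CPM in 6M_8M, and in Estop libraries at 2.67 CPM in 2M_6M, 0.0592 CPM in 2M_8M and 0.141 CPM in 6M_10M.

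The effect of DBD differed between WT and zQ175 mice for 11 genes by edgeR's test of the interaction. The WT minus zQ175 differences on the log2 scale were 1.07 for Tcfl5, 1.70 for Nup62cl, 2.34 for Lrrc8e, 0.39 for Mei1, 0.55 for Wdfy4, 0.20 for Tiam2 and 0.26 for Rgs4. Wdfy4 was at 0.50 in WT mice and at -0.05 in zQ175 mice. Rgs4, a regulator of G protein signalling, was at 0.11 in WT mice and at -0.15 in zQ175 mice. The others were 7.61 for Ttr, 5.198 for Igkv15-103, -7.80 for Gm26883, whose fitted value rests on no count in any WT DBD library, and -2.87 for Prdm12. Igkv15-103 and Prdm12 did not pass the filter on low counts in the WT comparison. In zQ175 mice Igkv15-103 had 0.0155 ± 0.0452 CPM under DBD and 0.0537 ± 0.193 CPM under Estop. Prdm12 had 0.487 ± 0.678 CPM under DBD and 0.152 ± 0.164 CPM under Estop there. The value of Ttr in WT mice rests on 1 DBD library at 639 CPM. In zQ175 mice Ttr had a median of 0 CPM under both viruses, with at most 2.39 CPM under DBD and 26.7 CPM under Estop. Between 6M_12M and 6M_8M the effect differed for Ighg1, an immunoglobulin gene, by 10.84, and between males and females for Gm20388 by -16.05. The mean over the WT libraries was 0.82 CPM for Ighg1 and 1.09 CPM for Gm20388. Fitted effects of Ighg1 were -5.42 in 6M_8M and 5.42 in 6M_12M. Those of Gm20388 were 8.32 in females and -7.73 in males. Neither difference passed with hemisphere as a covariate.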

How the results depend on the processing

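Counts of genes higher and lower under DBD (168 and 375) were 382 and 207 with total counts only, 396 and 764 once the length index entered the model, 256 and 488 with the mouse as a replicate block, 348 and 622 with replicate numbers as a replicate block, 478 and 753 with the mouse as a random block in limma voom, and 92 and 205 without paradigm 6M_10M. Under the other alternatives they lay between 121 and 195 higher and 262 and 458 lower. Total counts only moved the median of all genes to 0.04. For 2M_6M (23 genes) there were 12 with all 76 libraries, 42 with the length index and 10 with the replicate block by number. For 2M_8M (35) there were 60 with the length index, 54 with DESeq2, 13 in a fit of its own and 13 with the block by number. For 6M_8M (58) there were 129 with the length index. For 6M_10M (38) there were 83 with the length index, 175 in a fit of its own and 92 with the block by number. For 6M_12M (38) there were 25 with all 76 libraries, 108 with the length index, 11 in a fit of its own and 9 with the block by number. The gene that differed between 6M_12M and 6M_8M was not called, leaving 0, with all 76 libraries, hemisphere or the length index, and the gene that differed by sex was not called, leaving 0, with all 76 libraries or hemisphere. WT minus zQ175 called 18 genes with the length index, and the WPRE slope 47. Ttr was at -0.98 with DESeq2 and at -0.65 without the library with high Ttr, an alternative chosen after seeing the data. The cause of these shifts was not tested. Low genes such as Obox1 rest on few counts, and bulk RNA does not give the cell of origin.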

Other observations

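Further genes, chosen after their values were seen, were higher under DBD. Bsph1, which encodes a sperm-binding protein, had 0.617 ± 0.257 CPM under DBD and 0.234 ± 0.132 CPM under Estop (log2 fold change 1.38, SE 0.15, adjusted p = 1.28e-10, edgeR), and 17 of 18 mice were higher on the DBD side. Tekt5, a tektin of sperm flagella, had 8.05 ± 1.37 CPM under DBD and 5.89 ± 0.997 CPM under Estop (0.42, SE 0.05). Stat3, a transcription factor of cytokine signalling, had 58.1 ± 11.2 CPM under DBD and 46.6 ± 9.32 CPM under Estop (0.32, SE 0.04, adjusted p = 2.32e-07), and its value in zQ175 mice was 0.09. The difference of the Stat3 effect between genotypes did not pass (adjusted p = 0.20).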
